A study of Mus musculus with 9 samples.

Results

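Elastic fibre and microfibril genes were described across the sorted lung fibroblasts of aged mice. The set held 10 genes, chosen by name: elastin (Eln), the fibrillins Fbn1 and Fbn2, the fibulins Fbln2, Fbln5, Efemp1 (fibulin-3) and Efemp2 (fibulin-4), and the microfibril-associated proteins Mfap2, Mfap4 and Mfap5. All 10 were found among the 43346 genes listed, and all 10 passed the filter that left 16877 genes for testing. The rule that selects them uses gene names only.

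Elastic fibres let the lung stretch with each breath and recoil. A bundle of microfibrils, built mainly of fibrillins, is laid down first, and soluble elastin is then carried onto it, with fibulins as adaptors, and cross-linked by lysyl oxidases into an insoluble core. Most elastin of the lung is made during development, when fibrillin-2 is also most abundant, and little new fibre is laid down in the healthy adult organ.

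The libraries were made from polyadenylated RNA of Col1a1-GFP transgenic mice, in which the collagen I promoter drives a green fluorescent protein. Lungs of 4 aged sham mice, given saline into the trachea, and of 5 aged bleo mice, given a single intratracheal dose of bleomycin, were taken on day 30, and GFP+ cells without CD45, CD31 and EpCAM were sorted. All 9 mice were aged, which the labels give as 72 weeks and the design text as 18 months, and all carried the reporter. The comparison below is that of aged bleo with aged sham, and young mice were not analysed here.

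The aged sham libraries held between 49921946 and 62370512 counted reads, and the aged bleo libraries between 53833507 and 68260600. Levels are given as CPM, the counts scaled to library size after TMM normalization, and groups were compared by the quasi-likelihood test of edgeR with the Benjamini-Hochberg false discovery rate (FDR) taken over all tested genes. A gene was called when its FDR was under 0.10 and its fold change over 1.5. All 6 fibroblast markers (Col1a1, Col1a2, Col3a1, Pdgfra, Dcn, Lum) were detected in every library, with a summed level of at least 24399 CPM, whereas 5 endothelial markers summed to at most 16.9 CPM and 5 epithelial markers to at most 78.8 CPM. The presence of the fibroblast markers thus matched the label, while markers of leukocytes, given below, were also present in these CD45-negative cells. The fibroblast sum differed by group, at 24399 to 30152 CPM in aged sham and 54352 to 71786 CPM in aged bleo. Of these markers 3 were called higher and 1 (Dcn) lower, against 12.3% and 11.5% of all tested genes. In bulk RNA, fewer cells of a type and less RNA per cell cannot be told apart.

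After bleomycin the set moved in both directions. Elastin, fibrillin-2 and Mfap4 rose, the fibulins Fbln2, Fbln5 and Efemp1 fell, and Fbn1, Efemp2, Mfap2 and Mfap5 were not called. Thus 6 of 10 genes were called, 3 in each direction, where 23.8% of all tested genes were called, 12.3% as higher and 11.5% as lower. The median log2 fold change of the 10 genes was 0.29, against 0.01 over all tested genes. The 4 aged sham and 5 aged bleo libraries did not overlap for 6 genes, which were Eln, Fbn2 and Mfap2 on the higher side and Fbln2, Fbln5 and Efemp1 on the lower side. The groups did not overlap for 32.2% of all tested genes, 16.1% in each direction.

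**Figure D1:**
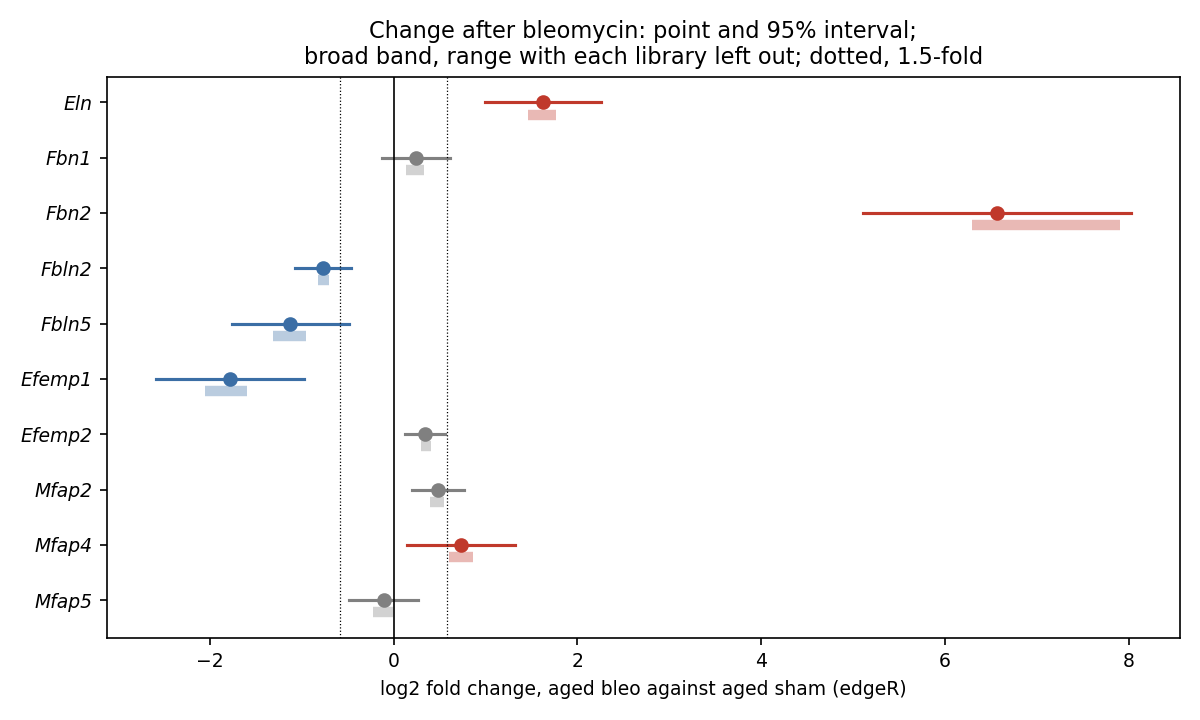
Log2 fold change of each gene in aged bleo against aged sham, with its 95% interval from edgeR (line) and the range over refits without any 1 library (broad band). Red marks genes called higher, blue genes called lower and grey genes not called, and the dotted lines stand at a 1.5-fold change. Fbn2 lies at 6.57, far to the right of Eln at 1.63, and Efemp1 lies lowest at -1.78.

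Elastin (Eln, ENSMUSG00000029675) is the core protein of the fibre, and its gene lies on the minus strand of chr5:134703781-134747241. Its level in the aged sham libraries 1 to 4 was 1619, 2262, 1796 and 2028 CPM. In the aged bleo libraries 1 to 5 it was 7686, 5836, 8468, 3425 and 4357 CPM. Every aged bleo library was above every aged sham library, and bleo 4 and bleo 5 were the lowest of their group. The mean rose from 1926 ± 279.9 (SD, n = 4) to 5954 ± 2138 CPM (SD, n = 5), which is 3.09-fold (log2 fold change 1.63 ± 0.28 SE, FDR = 0.00296, edgeR). Refitting without any 1 library gave a log2 fold change between 1.47 and 1.77.

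The fibrillins form the microfibril scaffold. Fibrillin-1 (Fbn1, ENSMUSG00000027204, minus strand of chr2:125300594-125507993) is the main fibrillin of adult tissue. It was at 2465, 1816, 2493 and 2838 CPM in the aged sham libraries. The aged bleo libraries held 3057, 2847, 3229, 2222 and 2884 CPM. The groups overlapped, since bleo 4 lay below 3 of the 4 sham libraries. The means were 2403 ± 427 and 2848 ± 382 CPM, and the log2 fold change of 0.25 had a 95% interval from -0.12 to 0.61 (FDR = 0.270).

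Fibrillin-2 (Fbn2, ENSMUSG00000024598, minus strand of chr18:58008623-58209926) is the fibrillin known chiefly from embryonic and newborn tissue. Only 96, 13, 13 and 10 reads were counted in the aged sham libraries, or 1.55, 0.22, 0.25 and 0.20 CPM. The aged bleo libraries held 46.9, 33.5, 51.7, 63.1 and 78.7 CPM, from 1888 to 4624 reads each. No aged bleo library came near the sham range, and within aged bleo the order differed from that of elastin, with bleo 4 and bleo 5 the highest. The mean rose from 0.557 ± 0.663 to 54.8 ± 17.1 CPM, a log2 fold change of 6.57 ± 0.65 (FDR = 1.76e-04) or 94.9-fold, with a 95% interval from 34.6-fold to 260.3-fold. The size of the fold rested on aged sham 1, since without that library it was 240.1-fold, and a transcript at 10 to 13 reads in the other sham libraries leaves the fold uncertain. The absolute level remained low in both groups, as described below per length.

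**Figure D2:**
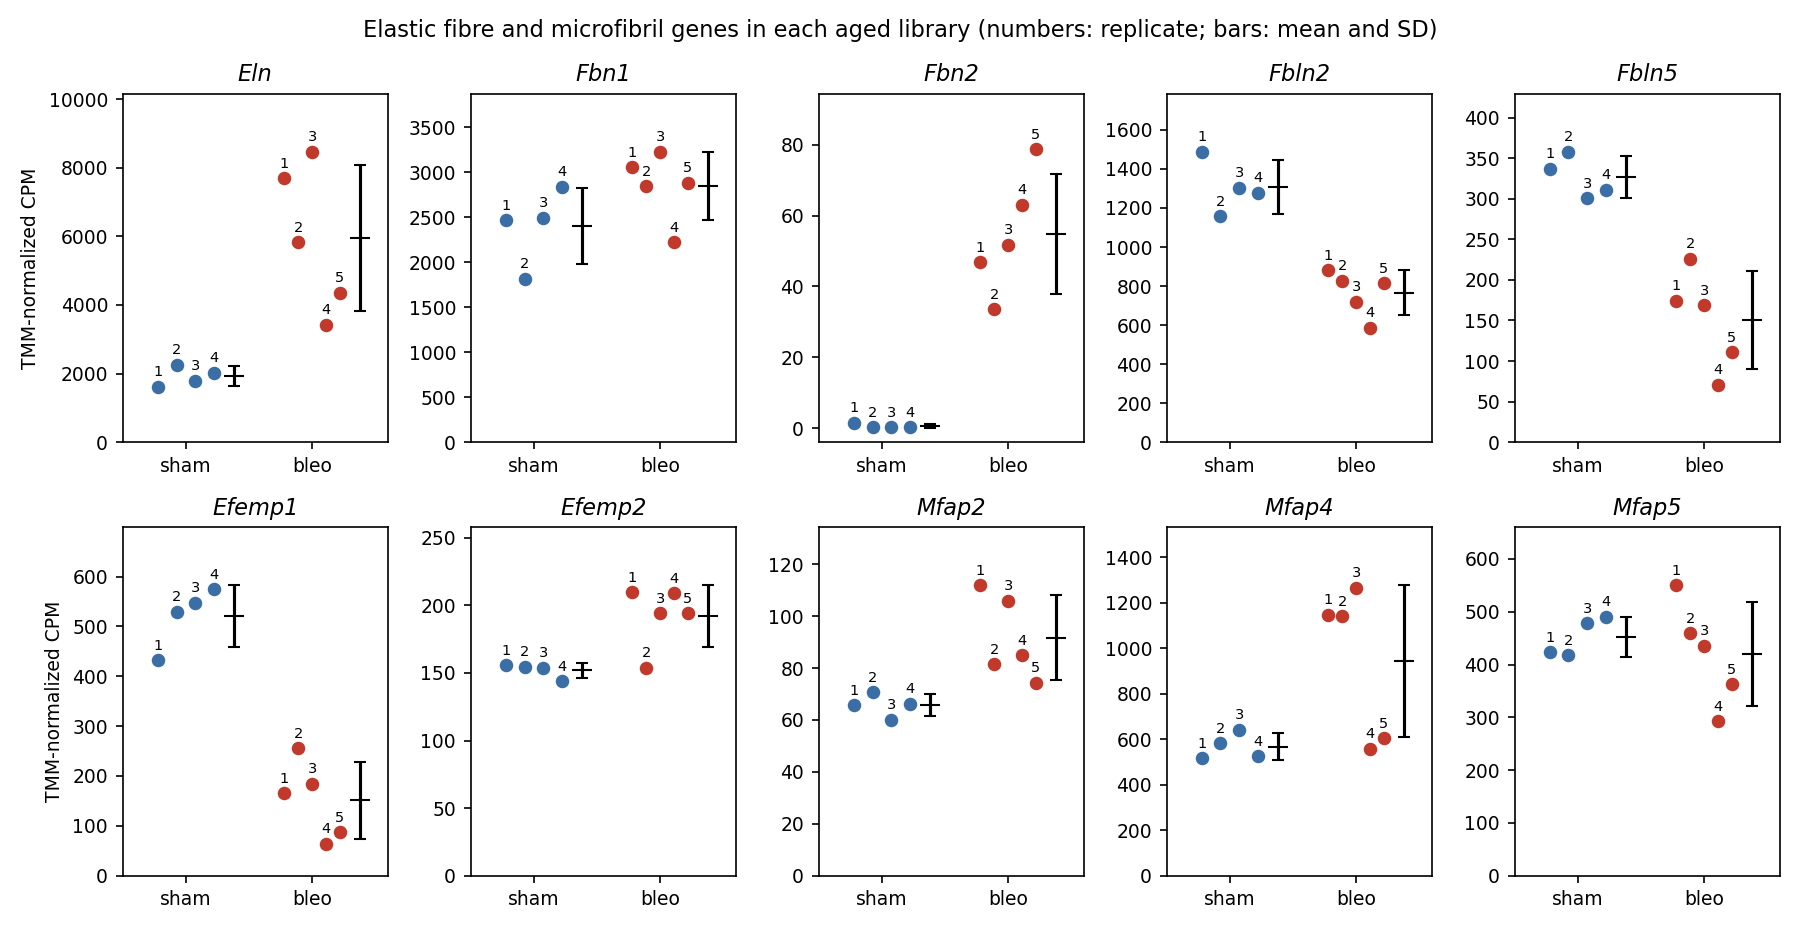
TMM-normalized CPM of the 10 genes in every library (vertical axis, linear, 1 scale per gene), with aged sham in blue and aged bleo in red. The numbers give the replicate, and the black bars the mean and SD. For Eln, Fbn2, Mfap2, Fbln2, Fbln5 and Efemp1 the groups do not overlap, and bleo 4 and bleo 5 are the lowest aged bleo libraries for Eln, Mfap4, Mfap5, Fbln5 and Efemp1 and the highest for Fbn2.

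Fibulins are glycoproteins of elastic fibres and basement membranes. Fbln5, Efemp1 and Efemp2 belong to the short fibulins and Fbln2 to the long ones. The 250 bases before the RefSeq start of each of these fibulins are shown 5′ to 3′ on the gene's strand (GRCm38.p6). They were picked for display with the changes of these genes known. RefSeq gives 2 starts for Fbln5 and 3 for Efemp2, of which the start nearest to that of the deposited gene was taken, and the matches below hold for these windows only. Capitals mark GGAAA or its reverse complement TTTCC, the core of the site bound by NFAT factors, because the study examined the motif of the NFAT factor NFATc1. The study searched a wider region, on both sides of the start, by motif discovery, so this core match does not repeat its search. The windows are chr6:91212514-91212763 (plus strand) for Fbln2, chr12:101819120-101819369 (minus strand) for Fbln5, chr11:28852955-28853204 (plus strand) for Efemp1 and chr19:5473696-5473945 (plus strand) for Efemp2. The RefSeq start of Fbln2 lies 309 bases inside the deposited gene, and that of Fbln5 lies 64 bases before the deposited gene.
Fbln2: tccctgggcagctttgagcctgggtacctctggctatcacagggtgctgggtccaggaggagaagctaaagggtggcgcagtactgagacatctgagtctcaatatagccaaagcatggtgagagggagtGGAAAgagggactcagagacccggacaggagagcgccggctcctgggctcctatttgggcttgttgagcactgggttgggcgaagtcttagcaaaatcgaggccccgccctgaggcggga
Fbln5: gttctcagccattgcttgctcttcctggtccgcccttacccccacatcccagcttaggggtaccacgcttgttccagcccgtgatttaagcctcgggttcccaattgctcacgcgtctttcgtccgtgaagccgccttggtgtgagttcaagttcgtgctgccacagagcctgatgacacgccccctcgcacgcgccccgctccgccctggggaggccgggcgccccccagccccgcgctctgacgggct
Efemp1: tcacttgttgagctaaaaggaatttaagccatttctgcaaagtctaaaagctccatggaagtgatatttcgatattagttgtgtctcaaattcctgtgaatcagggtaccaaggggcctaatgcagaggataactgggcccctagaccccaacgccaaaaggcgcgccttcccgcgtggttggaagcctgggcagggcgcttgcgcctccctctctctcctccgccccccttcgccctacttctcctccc
Efemp2: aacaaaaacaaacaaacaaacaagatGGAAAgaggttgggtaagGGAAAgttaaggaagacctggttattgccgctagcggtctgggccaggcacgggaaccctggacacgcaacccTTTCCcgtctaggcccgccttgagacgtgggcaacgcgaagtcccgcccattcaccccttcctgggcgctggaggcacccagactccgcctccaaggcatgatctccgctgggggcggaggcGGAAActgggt

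Searched on both strands, GGAAA was found once in the Fbln2 window, 4 times in the Efemp2 window and 0 times in those of Fbln5 and Efemp1. It was present in 55.6% of 32851 RefSeq promoter windows of the same length. The GC box GGGCGG, present in 32.7% of windows, was found in all 4, once each in Fbln2 and Efemp1 and 2 times each in Fbln5 and Efemp2. The SMAD box CAGAC, present in 42.2% of windows, was found 2 times in the Efemp2 window and 0 times in those of Fbln2, Fbln5 and Efemp1. Neither the AP-1 site TGACTCA (4.5% of windows) nor the TATA box TATAAA (12.4%) was found in any of the 4. Fbn1 and Mfap2 also had a RefSeq window, each with 2 GGAAA matches. CAGAC was found 1 time in the Mfap2 window and 0 times in that of Fbn1. Thus 6 of the 10 genes were matched, and the 4 without a window were Eln, Fbn2, Mfap4 and Mfap5. The RefSeq start of Fbn1 lies 1555 bases inside the deposited gene. These matches describe the letters only. Binding at them was not measured here, and whether they bear on the levels of these genes was not tested.

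Fibulin-2 (Fbln2, ENSMUSG00000064080, plus strand of chr6:91212455-91272540) lies at the border of the microfibril and the elastin core. It was at 1489, 1157, 1304 and 1277 CPM in the aged sham libraries and at 882, 828, 719, 586 and 814 CPM in the aged bleo libraries. The lowest sham library exceeded the highest bleo library. The mean fell from 1307 ± 137 to 766 ± 116 CPM, 1.71-fold lower (log2 fold change -0.77 ± 0.14, FDR = 0.00342).

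Fibulin-5 (Fbln5, ENSMUSG00000021186, minus strand of chr12:101746565-101819055) binds elastin and cell integrins and is needed for elastic fibres to form. Its level was 337, 358, 300.3 and 311 CPM in aged sham and 174, 226, 169, 70.7 and 111 CPM in aged bleo. Again the groups were separate, and bleo 4 and bleo 5 were the lowest. The mean fell from 327 ± 26.0 to 150.2 ± 60.3 CPM, 2.17-fold lower (log2 fold change -1.12 ± 0.28, FDR = 0.0153).

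Fibulin-3 (Efemp1, ENSMUSG00000020467, plus strand of chr11:28853204-28926743), an elastic fibre protein of fascia and connective tissue, fell most of the 10. Its level was 432, 529.5, 548 and 574 CPM in aged sham and 165, 255, 184, 64.1 and 87.5 CPM in aged bleo. The lowest sham library was above the highest bleo library, bleo 2, which was also the highest of its group for Fbln5. The mean fell from 521 ± 62.1 to 151 ± 77.1 CPM, 3.44-fold lower (log2 fold change -1.78 ± 0.36, FDR = 0.00592). The range within aged bleo was wide, with a highest value 3.98 times the lowest for Efemp1 and 3.20 times for Fbln5, against 1.33 and 1.19 times within aged sham.

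Fibulin-4 (Efemp2, ENSMUSG00000024909, plus strand of chr19:5473973-5481853) brings lysyl oxidase to elastin. It was at 156, 155, 154 and 144 CPM in aged sham and at 209.6, 154, 194, 209 and 194 CPM in aged bleo. Bleo 2 lay within the sham range and the other 4 above it. With means of 152 ± 5.45 and 192 ± 22.8 CPM, the difference passed the FDR threshold (log2 fold change 0.34 ± 0.10, FDR = 0.0246) but, at 1.27-fold, not the fold threshold. The 95% interval, from 0.12 to 0.56 on the log2 scale, included no fall.

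The microfibril-associated proteins sit on the fibrillin scaffold. Mfap4 (ENSMUSG00000042436, plus strand of chr11:61485431-61488900) binds tropoelastin and the fibre surface. It was at 517, 583, 642 and 524 CPM in aged sham and at 1147, 1139, 1266, 558 and 604 CPM in aged bleo. Bleo 1, 2 and 3 were well above every sham library, whereas bleo 4 and bleo 5 lay within the sham range. The mean rose from 567 ± 58.5 to 943 ± 334 CPM, 1.66-fold (log2 fold change 0.73 ± 0.26, FDR = 0.0530). This call was lost, with an FDR from 0.103 to 0.118, when sham 1, sham 2, sham 4, bleo 1 or bleo 3 was left out.

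Mfap2 (MAGP-1, ENSMUSG00000060572, plus strand of chr4:141010418-141015984) and Mfap5 (MAGP-2, ENSMUSG00000030116, plus strand of chr6:122505845-122529290) are homologous small glycoproteins bound to fibrillin. Mfap2 was at 65.7, 70.7, 60.2 and 66.3 CPM in aged sham and at 112, 81.5, 106, 85.0 and 74.3 CPM in aged bleo. Although the groups did not overlap, the means of 65.7 ± 4.31 and 91.8 ± 16.3 CPM differed 1.40-fold, under the fold threshold (log2 fold change 0.48 ± 0.13, FDR = 0.0179). Mfap5 was at 423, 418, 478 and 490.5 CPM in aged sham and at 550.4, 459, 436, 293 and 362 CPM in aged bleo. The sham values lay inside the bleo range, and no difference was detected (means 452 ± 37.2 and 420.1 ± 97.8 CPM, log2 fold change -0.11, 95% interval from -0.48 to 0.27, FDR = 0.653).

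To compare genes with each other, the deposited FPKM values, which are scaled to gene length, were used. In aged sham the mean level per length was highest for Eln (313 FPKM), followed by Mfap4 (124), Efemp1 (107), Fbln2 (93.2), Fbn1 (83.0), Mfap5 (52.8), Efemp2 (24.1), Fbln5 (23.5), Mfap2 (22.7) and Fbn2 (0.0223 FPKM). The ranges of neighbours overlapped from Mfap4 down to Fbn1 and from Efemp2 down to Mfap2, so those orders are not resolved, whereas Eln stood above and Fbn2 below all others in every library. In aged bleo Eln led at 985 FPKM, followed by Mfap4 (209.5), Fbn1 (100.8) and Fbln2 (56.0), with no overlap between these neighbours. Fbln2, Mfap5 (50.2), Mfap2 (32.5), Efemp2 (31.3), Efemp1 (31.6) and Fbln5 (11.0 FPKM) overlapped, each with the next in order. Fbn2, the gene with the largest fold rise, was still the lowest per length at 2.26 FPKM, and Fbn1 remained the predominant fibrillin.

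As a share of the summed FPKM of the 10 genes, elastin went from 37.0% ± 3.78 (SD, n = 4) to 64.5% ± 3.67 (SD, n = 5), and its lowest aged bleo share (60.8%) was above its highest aged sham share (42.1%). Efemp1 went from 12.7% ± 0.939 to 2.05% ± 0.798 and Fbln2 from 11.1% ± 1.81 to 3.92% ± 1.00. The share of Mfap4 was 14.7% ± 1.44 in aged sham and 13.7% ± 1.63 in aged bleo, with overlapping ranges. These shares are a description and sum to a fixed total, so a higher share of elastin leaves less for the other genes together. The Fbn2 share went from 0.00278% to 0.170%. The 10 genes together took 0.769% ± 0.0397 of all counts in aged sham and 1.15% ± 0.261 in aged bleo, with ranges of 0.731% to 0.820% and 0.813% to 1.43%.

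**Figure D3:**
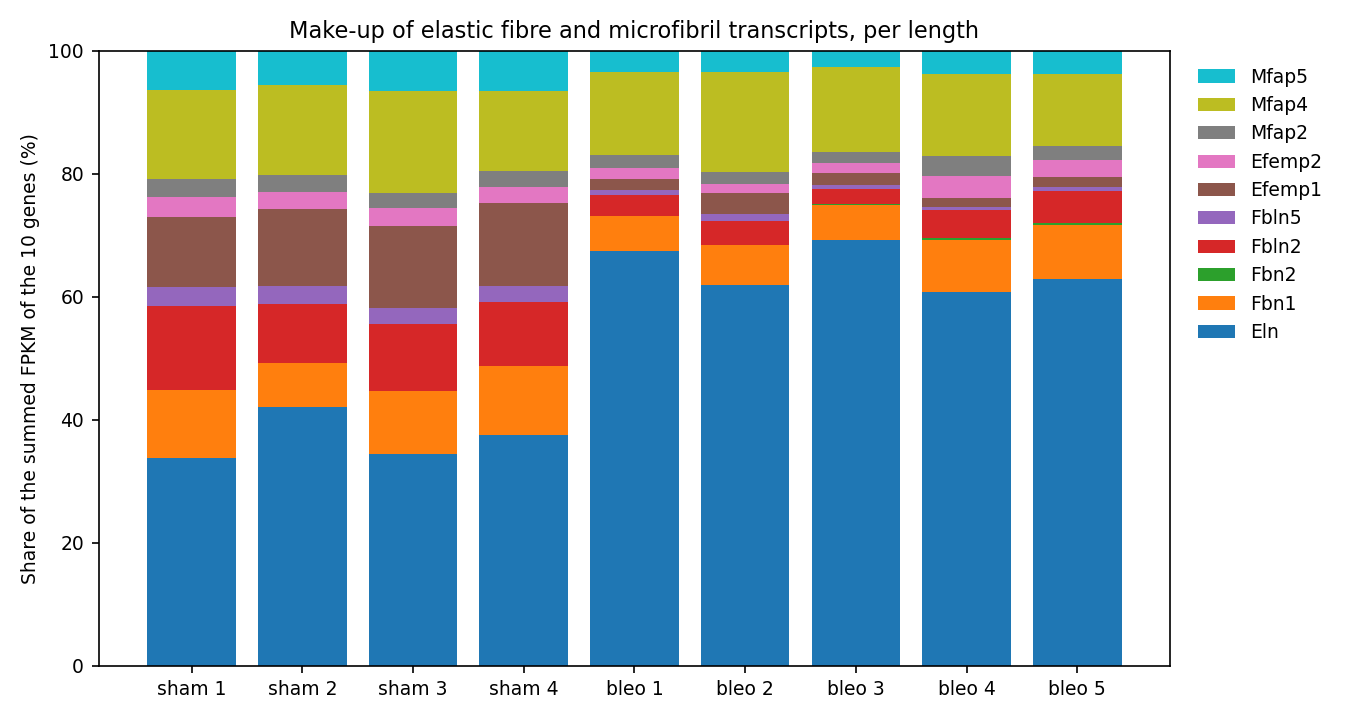
Share of each gene in the summed FPKM of the 10 genes (vertical axis, percent) for the 4 aged sham and 5 aged bleo libraries, stacked in 1 bar per library. Elastin fills 33.8% to 42.1% of the aged sham bars and 60.8% to 69.3% of the aged bleo bars, while the Efemp1 segment narrows.

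Ratios between genes of the same library do not depend on how libraries are scaled, except through the 0.1 FPKM added here, which matters for low genes such as Fbn2. On log2(FPKM + 0.1), 5 pairs were tested by exact permutation, two-sided. For this exact test the 126 ways to split the libraries into 4 and 5 allow a smallest p of 0.00794. The elastin core relative to its scaffold, Eln to Fbn1, was 3.08 to 5.85 in aged sham and 7.09 to 12.3 in aged bleo, a rise of 2.47-fold (p = 0.00794, adjusted over 5 pairs 0.0198, exact). Fbn2 to Fbn1 rose from between 8.22e-05 and 7.28e-04 to between 0.0136 and 0.0329 (p = 0.00794, adjusted 0.0198, exact). Because Fbn2 lay below the pseudocount in aged sham, the size of that difference depended on the scale, at 3.95 in log2 units with 0.1 FPKM added, 1.36 with 1 FPKM added and 6.76 on the CPM scale.

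Within the fibulins, Efemp2 to Efemp1 rose 4.83-fold, from between 0.193 and 0.277 to between 0.464 and 2.51 (p = 0.0159, adjusted 0.0198, exact), and in bleo 4 and bleo 5 Efemp2 exceeded Efemp1. Mfap5 to Mfap2 fell 1.52-fold, from between 2.00 and 2.68 to between 1.16 and 1.90 (p = 0.0159, adjusted 0.0198, exact), and without aged sham 3 the adjusted p was 0.0670. Fbln2 to Fbln5 was 3.21 to 4.38 in aged sham and 3.63 to 8.23 in aged bleo, with overlapping ranges (p = 0.175, exact).

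**Figure D4:**
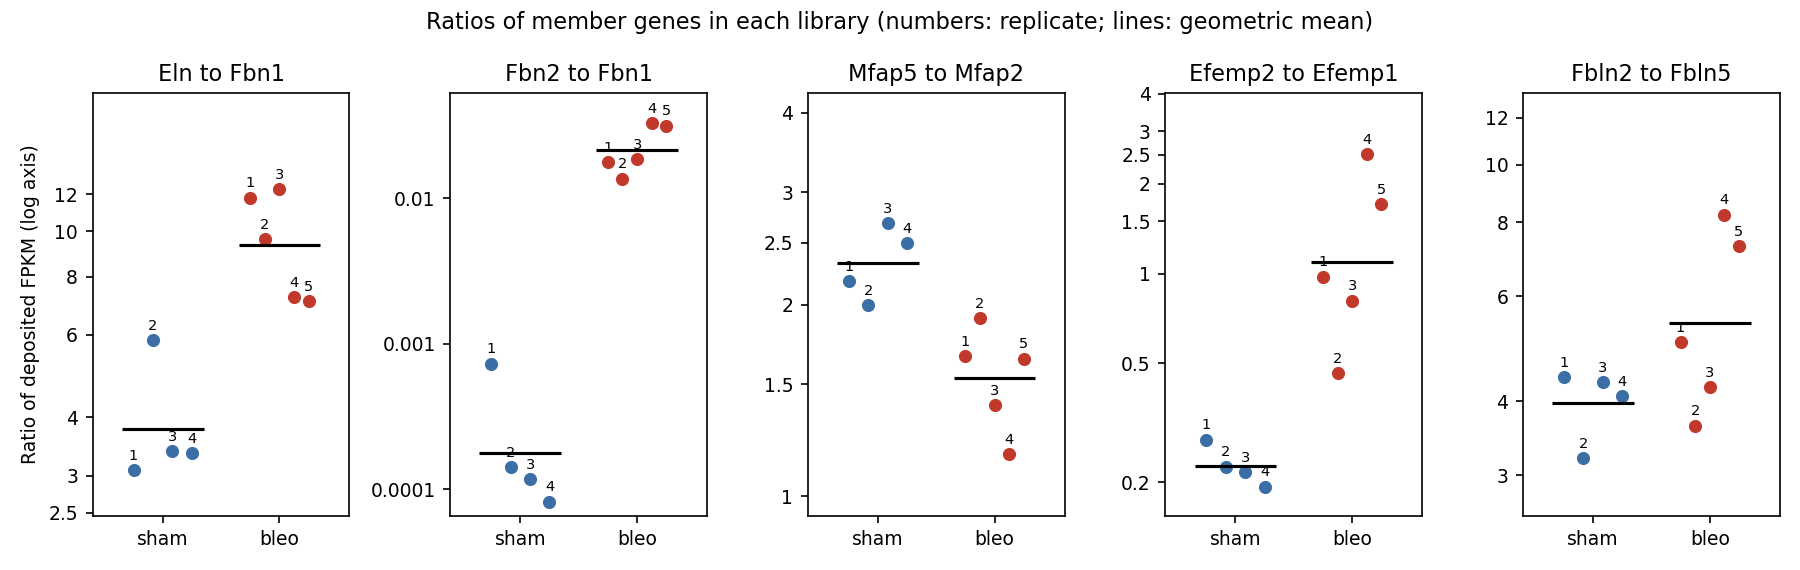
Ratio of the deposited FPKM of 2 genes (vertical log axis) in each aged sham (blue) and aged bleo (red) library, with replicate numbers and the geometric mean as a line. The groups are separate for Eln to Fbn1, Fbn2 to Fbn1, Mfap5 to Mfap2 and Efemp2 to Efemp1, and overlap for Fbln2 to Fbln5.

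Within aged bleo, bleo 4 and bleo 5 held the lowest Eln, Mfap4, Mfap5, Fbln5 and Efemp1 and the highest Fbn2, a pair singled out after its values were seen. The other 4 genes did not follow this order. The lowest aged bleo libraries were bleo 4 and bleo 2 for Fbn1, bleo 4 and bleo 3 for Fbln2, bleo 5 and bleo 2 for Mfap2, and bleo 2 for Efemp2. In the same libraries the 6 adventitial fibroblast markers (Pi16, Dpp4, Cd34, Ly6a, Ly6c1, Col14a1) summed to 1125 and 1429 CPM, against 3379 to 4494 CPM in bleo 1 to 3 and 7318 to 8331 CPM in aged sham. All 6 of these markers were called lower, where 11.5% of all tested genes were called lower and 12.3% higher. The 4 fibrotic fibroblast markers (Cthrc1, Postn, Tnc, Spp1), all called higher, summed to 7207 and 7877 CPM in bleo 4 and bleo 5, to 3225 to 5022 CPM in bleo 1 to 3 and to 245 to 400.1 CPM in aged sham. The 5 proliferation markers, all called higher, summed to 248 and 224 CPM in bleo 4 and bleo 5. They summed to 32.1 to 96.0 CPM in bleo 1 to 3 and to 7.52 to 51.5 CPM in aged sham. Only bleo 2 (32.1 CPM) lay below a sham library, sham 1 (51.5 CPM). Smooth muscle marker sums were 666 and 1080 CPM in bleo 4 and bleo 5, against 1230 to 1571 CPM in bleo 1 to 3. Alveolar fibroblast markers summed to 1028 and 1363 CPM, against 2150 to 3022 CPM. Macrophage markers were higher in this pair, at 1276 and 752 CPM, against 418 to 620 CPM. The sums of the remaining marker lists did not set this pair apart from bleo 1 to 3. The part of these shifts in the values of the elastic fibre genes was not tested.

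Other cell types also moved with the groups. The marker calls below stand beside 12.3% of all tested genes called higher and 11.5% called lower. Smooth muscle cells make elastin too. Their 5 markers (Myh11, Cnn1, Des, Actg2, Lmod1) summed to 1360 to 2715 CPM in aged sham and 666 to 1571 CPM in aged bleo, with 3 of 5 called lower and 0 of 5 called higher. The 6 alveolar fibroblast markers summed to 2816 to 4489 CPM in aged sham and 1028 to 3022 CPM in aged bleo, with 3 called lower and 1 higher. The 5 macrophage markers summed to 108 to 201 CPM in aged sham and 418 to 1276 CPM in aged bleo, with 4 called higher, although the sort removed CD45+ cells. The 4 pan-leukocyte markers summed to 79.2 to 284 CPM in aged sham and 76.9 to 440.2 CPM in aged bleo, and the 5 neutrophil markers to 149.9 to 923 and 69.9 to 819 CPM. Pericyte sums overlapped, at 239 to 400.3 and 276 to 464 CPM, with 2 of 5 markers called higher and 1 called lower. Sums of 5 mesothelial markers also overlapped, at 22.8 to 71.4 and 27.9 to 107 CPM. The part of these cell types in the values of the elastic fibre genes was not tested. Pan-leukocyte and neutrophil marker sums were highest in sham 4 and bleo 4, and without both libraries the same 6 genes were called, with log2 fold changes of 1.78 for Eln, 6.23 for Fbn2 and -1.56 for Efemp1.

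The names of the libraries in the labels carry a final digit, which is 4 for every aged sham library and for bleo 4, 5 for bleo 1 to 3 and 6 for bleo 5, and its meaning is not given. Within the digit shared by both groups, only bleo 4 can be set against aged sham, with no test. Its log2(CPM + 0.05) less the aged sham mean was 0.84 for Eln, 7.21 for Fbn2, -1.15 for Fbln2, -2.20 for Fbln5 and -3.01 for Efemp1, and -0.02 for Mfap4. The other 4 aged bleo libraries gave 1.74, 6.88, -0.69, -0.98 and -1.68 for the first 5 and 0.82 for Mfap4.

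The partners of the elastic fibre were read from the same test in 7 lists of 45 genes, of which 43 were tested (not Mmp7 and Elane), 15 rose and 13 fell, where 12.3% of all tested genes were called higher and 11.5% lower. Of 5 cross-linking enzymes, 2 rose, led by Lox (159 ± 13.2 to 754 ± 251 CPM, log2 fold change 2.24, FDR = 2.50e-04), and 1 fell, Loxl4 (-1.26, FDR = 0.0204). Loxl1, the lysyl oxidase most tied to elastin renewal, had a log2 fold change of -0.02. Latent TGF-β binding proteins lie on microfibrils, where some of them, but not all, hold latent TGF-β. Of these 4, Ltbp2 rose from 86.5 ± 32.9 to 1633 ± 308 CPM (log2 fold change 4.24, FDR = 2.3e-05) and Ltbp4, which acts in elastin assembly with fibulins, fell from 5604 ± 251 to 2201 ± 1285 CPM (-1.35, FDR = 0.0381).

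Of 7 other fibulins, hemicentins and emilins, 3 rose and 3 fell, against 12.3% and 11.5% of all tested genes. Emilin3 rose most, from 0.221 ± 0.0772 to 7.21 ± 1.48 CPM (log2 fold change 5.01, FDR = 1.5e-05). Its aged sham libraries held 0.117 to 0.303 CPM, a low level that leaves the size of the fold uncertain. Fbln1, a fibulin found within the elastin core, fell from 2489 ± 134 to 933 ± 549 CPM (-1.42, FDR = 0.0317). Fbln7 was not called (0.45, FDR = 0.339). Of the 6 fibulin genes other than hemicentins, 4 were called lower (Fbln1, Fbln2, Fbln5, Efemp1) and Efemp2 and Fbln7 were not called. Of the hemicentins, Hmcn1 was called higher (1.37, FDR = 7.09e-04), with separate groups. Hmcn2 was called lower (-1.39, FDR = 0.0703), with overlapping groups. Some ADAMTS and ADAMTSL proteins bind fibrillin microfibrils. Of 10 such and related genes in the list 2 rose and 5 fell, among them Adamts17 (log2 fold change 2.62, FDR = 0.00493) and Papln (-1.65, FDR = 0.00855). Adamts10 (-0.65, FDR = 0.103) and Adamtsl2 (0.60, FDR = 0.224) passed the fold threshold only.

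Of 7 tested elastin-degrading proteases, 4 rose and 1 fell, against 12.3% and 11.5% of all tested genes, which hold for the small lists that follow as well. Mmp12, macrophage elastase, rose from 0.485 ± 0.140 to 47.3 ± 17.1 CPM (log2 fold change 6.61, FDR = 1.2e-05). Its aged sham libraries held 0.307 to 0.623 CPM, a low level that leaves the size of the fold uncertain. The macrophage marker sums given above were also higher in aged bleo, and the cell source of the Mmp12 reads was not tested. Ctsl, a lysosomal cysteine protease, fell (-0.63, FDR = 0.00587). Among 4 proteoglycans, Bgn rose (0.68, FDR = 0.00719) and Dcn, also counted among the fibroblast markers, fell (-1.54, FDR = 0.00667), while Vcan passed the FDR threshold only (0.51, FDR = 0.0327). Of 6 integrin receptor genes, 2 rose, led by Itgb1 (0.85, FDR = 0.00260), and Itgb3 fell (-0.61, FDR = 0.00136), while Itgb5 passed the FDR threshold only (0.52, FDR = 0.00668).

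**Figure D5:**
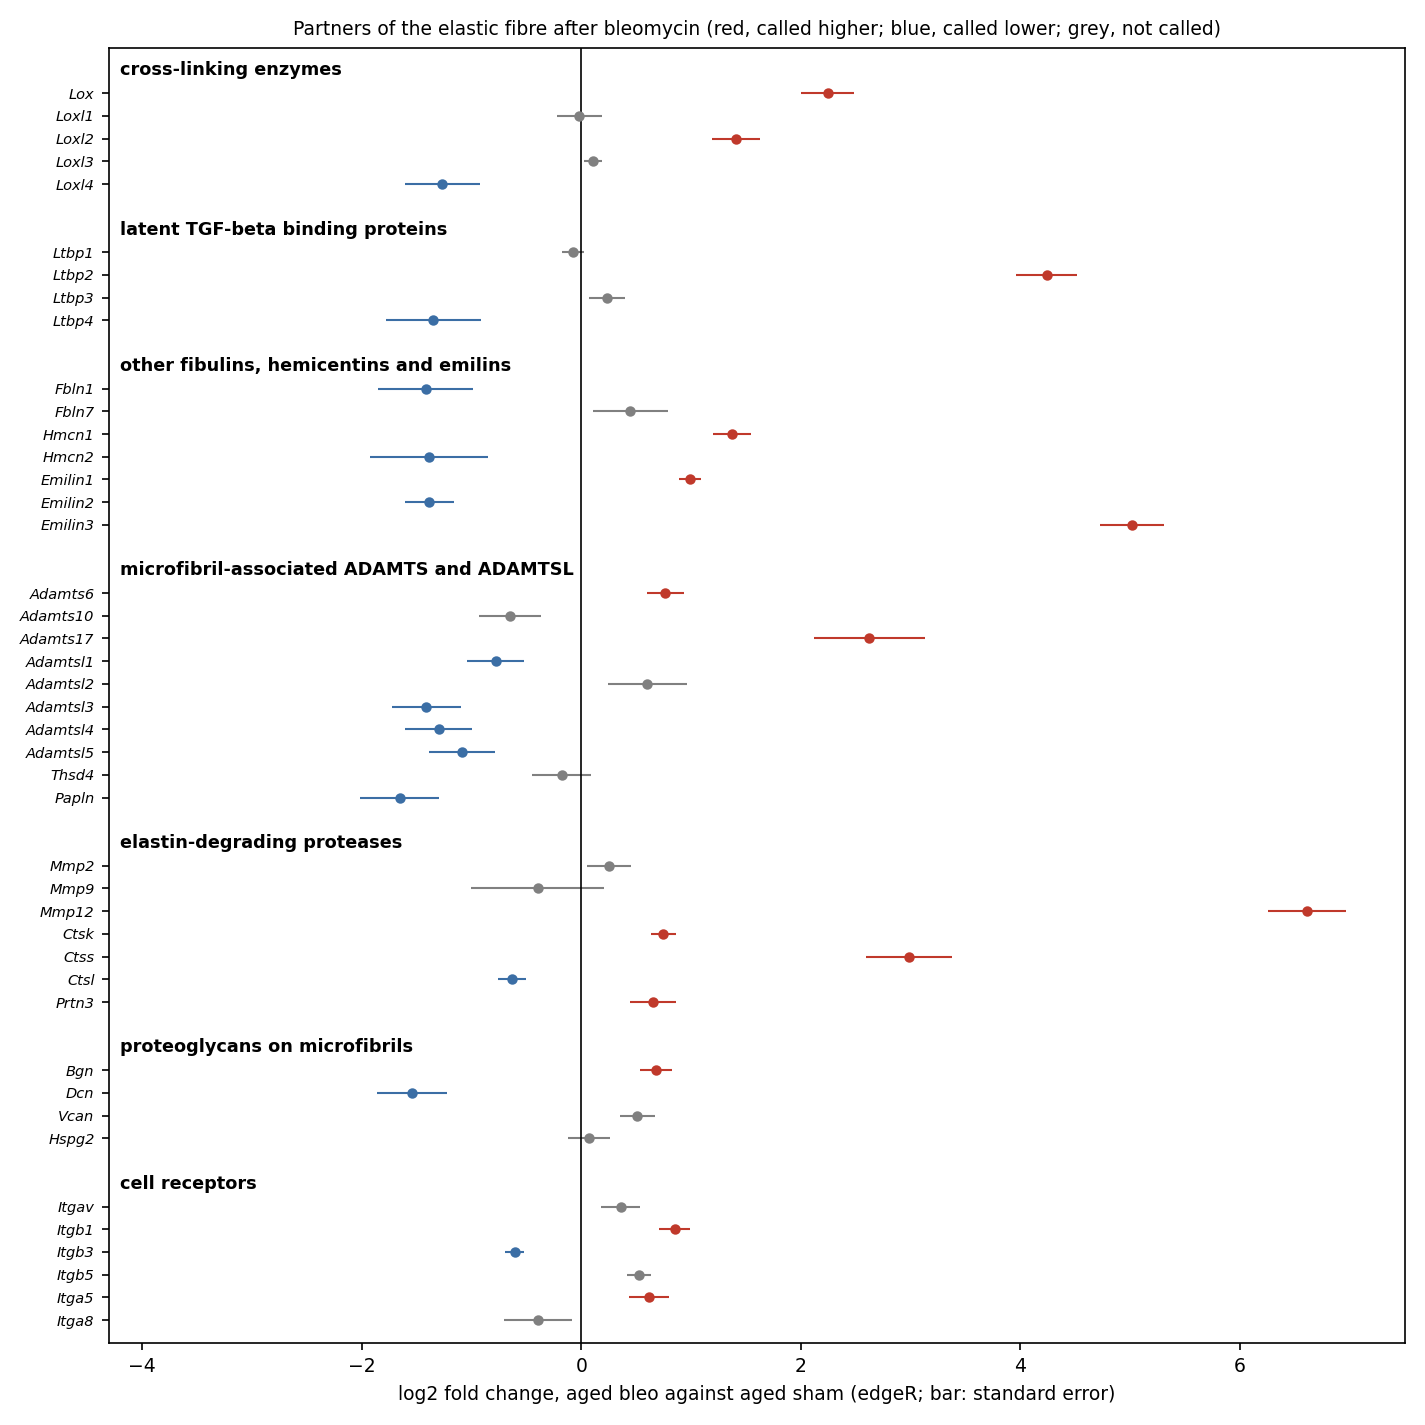
Log2 fold change (horizontal axis) of the 43 tested partner genes in aged bleo against aged sham, grouped by role, with standard errors from edgeR. Red marks the 15 genes called higher, blue the 13 called lower and grey those not called. Mmp12, Emilin3 and Ltbp2 lie farthest to the right, and the ADAMTSL genes mostly to the left.

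For each called gene, the genes of most similar course were found among 10004 tested genes with a mean of at least 10 CPM, by the mean absolute difference of centred log2 CPM over the 9 libraries. Fbn2 was followed most closely by Grem1 (0.449), a BMP antagonist, and Lrrc15 (0.639), a surface protein of activated fibroblasts, and 0 genes lay within 0.2 of it. Eln was followed by Matn4 (0.193) and Art4 (0.206), with 1 gene within 0.2, and Mfap4 by Gfra2 (0.142) and Cx3cl1 (0.145), with 11 genes within 0.2. Within 0.2 lay 77 genes for Efemp1, 252 for Fbln5 and 474 for Fbln2, but this distance is absolute and the genes varied by unequal amounts, with a mean absolute deviation of 0.975, 0.640 and 0.385 in log2 CPM and 3.46 for Fbn2, so these counts cannot be compared between genes. The nearest were Ppap2b (0.0537) for Efemp1, Gnao1 (0.0668) for Fbln5 and Gk5 (0.0794) for Fbln2. All 9 libraries share the treatment contrast, so these distances are a description only.

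Exons of 5 of the 10 genes overlap those of a gene on the other strand. The kit does not mark strand, and whether counting used it is not given in the sources used here, so such reads cannot be told apart. The partner gene's counts were 9.46% of those of Efemp2 (Mus81), 4.50% of Mfap4 (Mapk7), 1.82% of Fbn1 (Gm9913) and 0.782% of Fbn2 (Gm26507), while Gm30003, antisense to Eln, was not analysed here.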

How the data were processed

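The data analysed were RNA-Seq libraries of flow-sorted Col1a1-GFP lung fibroblasts, 4 of aged sham and 5 of aged bleo mice. The authors deposited 1 table with raw read counts per gene and, beside them, FPKM values. The FPKM values deposited by the authors are per gene length and per a library total that exceeds the summed counts 2.27 to 2.42 times. The submitters' processing notes name STAR 2.5.2b, featureCounts of Subread, bcl2fastq and the build mm10 (GRCm38).

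Libraries were grouped by their labels. Genes whose counts averaged 25 or more were tested with edgeR 4.0.16 (TMM, glmQLFit and glmQLFTest, no covariate) in R 4.3.3, and called at a fold change over 1.5 with an FDR under 0.10, the filter and thresholds of the study, which used a moderated test. A standard error is the log2 fold change divided by the root of its F statistic. Ratios were tested by exact permutation, and tests were tried on simulated counts. Promoters came from RefSeq (GRCm38.p6).

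All 10 genes of the set are named. Of each partner list, the largest rise and fall among called genes and those past 1 threshold only are named, and for called genes the nearest patterns. Loxl1, Fbln7, Hmcn1 and Hmcn2, and bleo 4 and bleo 5 as a pair, were singled out after their values were seen. The genes, lists and tests were chosen with earlier results of these data known. No 2 libraries of a group were duplicates (chi-square per degree of freedom 30.9 to 468). A count of 0 allows 3 counts, or 0.0409 to 0.0605 CPM, and such limits cover counting error only. The alternatives were DESeq2 1.42.0, limma 3.58.1 (limma-trend) on log2 CPM and on log2(FPKM + 0.1) and log2(FPKM + 1), a robust fit, RLE, scaling by library size only, no count filter, a filter of 10 counts per library, an FDR under 0.05 with a fold over 2, each library left out, and the replicate number as a block. Leaving out sham 4 and bleo 4 together was added after seeing the data.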

Additional observations from a re-analysis of the deposited data

Results flagged for a closer look

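Of 66 groups of 4 or 5 libraries examined for a library far from the others, 7 had one, where chance gives about 1 in 20. Fbn2 was at 1.55 CPM in aged sham 1, against 0.253 CPM in the next library, and the Fbn2 to Fbn1 ratio of the same library was 7.28e-04, against 1.42e-04 in the next. Aged sham 1 also had the highest Ltbp2 of its group (135.7 CPM, next 74.0 CPM), with fibrotic fibroblast markers at 400.1 CPM (245 to 284 CPM in sham 2 to 4) and proliferation markers at 51.5 CPM (7.52 to 9.60 CPM in sham 2 to 4). Efemp2 was lowest in aged sham 4 (143.9 CPM, next 153.8 CPM) and in aged bleo 2 (153.8 CPM, next 194 CPM). The Eln to Fbn1 ratio of aged sham 2 was 5.85, against 3.38 in the next library, and Itgb3 was at 54.6 CPM in aged bleo 4, against 44.7 CPM in the next. The causes were not tested.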

How the results depend on the processing

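Over the alternatives, the calls of Eln, Fbn2, Fbln5 and Efemp1 were kept in every one, and no scaling moved the median of all genes by over 0.1 in log2 units. On log2(FPKM + 1), 1785 genes were called (960 higher, 825 lower), since this scale understates low genes, and Fbn2 was at 1.64. With an FDR under 0.05 and a fold over 2, 2158 genes were called (1224 higher, 934 lower), with 17 partner genes (8 higher) and 4 of the 10 set genes, without Fbln2 and Mfap4. Leaving out each library gave 3525 to 4597 called genes, 5 or 6 of the set, 25 to 28 partner genes, and a log2 ratio of Mfap5 to Mfap2 from -0.68 to -0.50, not past the threshold without aged sham 3 (-0.53). Mfap5, not called, turned from -0.11 to 0.021 without sham 4 and bleo 4, and the cause was not tested. Replicate numbers did not pair the libraries (correlations of same-numbered deviations 0.14, 0.07, -0.17 and 0.29, and 1 of 4 sham libraries closest to its own number). With the replicate number as a block, 3541 genes and 6 of the set were called, and the log2 ratios were 1.41 for Eln to Fbn1, 3.81 for Fbn2 to Fbn1, -0.63 for Mfap5 to Mfap2 and 2.11 for Efemp2 to Efemp1, where 4 pairs cannot reach a p under 0.125. Fbn2 in aged sham is limited by depth, at 10 to 96 reads.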
